A study of Mus musculus with 8 samples.

Results

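Notch signalling was followed in thymic epithelial cells (TEC) through 10 genes of the 27514 that all libraries share: the receptors Notch1, Notch2 and Notch3, the ligands Jag1 and Jag2, the target genes Hes1 and Hey1, and the fringe glycosyltransferases Lfng, Mfng and Rfng. The genes were chosen by name, for their place in the pathway. All 10 were detected in all 8 single-cell RNA-seq libraries. The libraries came from wild-type mice of the strain given as C57 B6 (CD45.2) and fall into 6 groups. Total TEC of the embryo at E13.5 (DAPI- EpCAM+ CD45-) gave 1 library. Cortical TEC (cTEC, sorted as Ly51+ UEA-1-) gave 1 library each at E15.5, at E17.5 and from newborn (NB) mice, and 2 libraries from adults. Medullary TEC (mTEC, sorted as Ly51- UEA-1+) gave 2 adult libraries. The libraries belong to 2 data sets, told apart here by the gene list they were counted on. Data set 1 holds E13.5, E15.5, NB, adult cTEC 1 and adult mTEC 1, and data set 2 holds E17.5, adult cTEC 2 and adult mTEC 2. The study's methods describe 2 separate data sets and state a common capture time for the second only. The adult replicates 1 and 2 are therefore also the 2 data sets. Ages before the adult have no replicate. Nothing in the labels says how many animals were pooled, so the p-values measure the spread between these libraries only.

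Notch receptors are single-pass membrane proteins that are cut when they bind a Delta or Jagged ligand on a neighbouring cell. The released intracellular domain joins the DNA-binding protein Rbpj and switches on target genes, among them the Hes and Hey repressors. Fringe enzymes add sugars to the extracellular part of the receptor and change which ligands it responds to. In the thymus, cTEC are best known as senders: their ligand Dll4 instructs incoming progenitors to become T cells. TEC also carry receptors of their own, and Notch activity in the epithelium is known to matter for the medullary lineage in the embryo.

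Of 28334 deposited cells, 25750 were within the limits on mitochondrial share and gene number, and 25371 entered the sums after cells resembling thymocytes, parathyroid or endothelium were set aside. Libraries held between 492 and 8309 cells and between 2151147 and 89446662 UMIs (unique molecular identifiers, each standing for 1 captured transcript). Levels are given as CPM, the UMIs of a gene scaled to a common library total, with exact Poisson 95% intervals, which cover counting error only. Between 0 and 84 cell barcodes were shared by any pair of libraries, at most 1.90% of the smaller one. The cortical sort held its markers from E15.5 to NB, where 99.4% to 99.9% of cells carried a UMI of Psmb11 or Prss16. That share was 81.6% at E13.5, but only 66.1% and 79.0% in adult cTEC 1 and 2, and it was 25.0% and 29.5% in the adult mTEC libraries. A sum over a library cannot tell fewer positive cells from less RNA per cell. For that reason adult cTEC levels of Hey1, and the lineage differences that passed, are also given for cells with a cortical UMI.

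Notch1 (chr2:26457903-26516663, minus strand, GRCm38/mm10) was highest in E13.5 TEC, at 45.7 CPM (42.3 to 49.3). It was 14.2 CPM in E15.5 cTEC, 10.8 in E17.5 cTEC, 17.03 in NB cTEC, 25.6 and 13.1 in adult cTEC 1 and 2, and 29.7 and 24.5 in adult mTEC 1 and 2. The E13.5 interval was clear of all others, and adult cTEC 1 overlapped both adult mTEC libraries, while adult cTEC 2 (9.72 to 17.3) lay below both. Notch3 (chr17:32120820-32166852, minus strand) had the widest spread along the cortical series. It stood at 24.0 CPM (21.5 to 26.6) in E13.5 TEC, 4.29 in E15.5 cTEC, 1.25 in E17.5 cTEC and 0.346 (0.149 to 0.681) in NB cTEC, where 8 UMIs were counted in 3435 cells. The E13.5 level was 69.3 times the NB level, with no replicate at either age. Adult levels of Notch3 were 4.18 and 1.05 CPM in cTEC, from 9 and 4 UMIs, and 3.79 and 2.09 in mTEC.

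Notch2 (chr3:98013527-98150361, plus strand) was highest in adult cTEC. It was 33.4 CPM in E13.5 TEC, 24.4 in E15.5 cTEC, 30.1 in E17.5 cTEC, 42.5 in NB cTEC, and 134 (119 to 150) and 47.1 (40.5 to 54.6) in adult cTEC 1 and 2. In adult mTEC it was 21.8 and 12.8 CPM. Adult cTEC 1 was the one library far above the rest, and both adult cTEC libraries were above both adult mTEC libraries. The intervals of NB and adult cTEC 2 overlapped. In cells with at least 9 G or C bases in the barcode, a split described further on, Notch2 was 8.16 CPM in E13.5, 9.23 in E15.5, 14.6 in E17.5, 16.2 in NB, and 45.1 and 23.3 (15.9 to 32.9) in adult cTEC. There E13.5 was the lowest of the cortical series, and adult cTEC 2 overlapped adult mTEC 1 at 15.3 (12.4 to 18.7).

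Among the ligands, Jag1 (chr2:137081456-137116644, minus strand) was 37.3 CPM in E13.5 TEC, 9.21 in E15.5 cTEC, 6.74 in E17.5 cTEC and 9.34 in NB cTEC. It then stood at 77.2 (65.9 to 89.8) and 25.9 (21.1 to 31.6) in adult cTEC 1 and 2, against 13.1 and 7.98 in adult mTEC. In cells with at least 9 G or C bases in the barcode, adult cTEC 1 stood at 41.3 CPM, while adult cTEC 2 stood at 11.7 (6.66 to 18.9), overlapping NB at 6.22 (4.74 to 8.03). Jag2 (chr12:112907819-112929776, minus strand) was 16.2, 18.9, 14.4 and 11.2 CPM in the E13.5, E15.5, NB and adult cTEC 1 libraries of data set 1. In data set 2 it stood at 50.4 and 42.4 CPM in E17.5 and adult cTEC 2. It was 3.19 and 6.402 CPM in adult mTEC 1 and 2. Age and data set cannot be told apart for E17.5, the only library of its age.

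Hey1 (chr3:8663359-8667256, minus strand), a transcriptional repressor induced by Notch, was 201 CPM (193 to 208) in E13.5 TEC, 148 in E15.5 cTEC, 133 in E17.5 cTEC and 87.4 (83.6 to 91.3) in NB cTEC, and each interval was below the one before it. Adult cTEC 1 stood at 52.5 CPM (43.3 to 63.2) and adult cTEC 2 at 117 (106 to 128), on either side of the NB value. Adult mTEC held 15.46 and 10.8 CPM. In cells with a cortical UMI only, Hey1 was 61.2 and 134 CPM in the adult cTEC libraries, so the gap between the replicates was as wide. After each cell was thinned to 3000 UMIs, a Hey1 UMI was found in 41.5%, 33.6%, 32.1% and 22.1% of cells from E13.5 to NB, in 13.2% and 24.8% of adult cTEC, and in 5.39% and 3.55% of adult mTEC. Before thinning those shares were 66.1%, 60.1%, 69.6% and 40.0%, then 17.48% and 41.3%, then 11.7% and 9.63%, at median depths from 3919 to 11354 UMIs per cell. Thinning kept only 340 of the 492 cells of adult cTEC 1, those with at least 3000 UMIs. For scale, Psmb11, a cortical proteasome subunit, left a UMI in 0.571% and 1.74% of thinned adult mTEC.

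Hes1 (chr16:30064384-30067796, plus strand), the other repressor, split by data set within the cortical series. It was 32.5, 10.8, 9.34 and 24.2 CPM in the E13.5, E15.5, NB and adult cTEC 1 libraries of data set 1, and 90.1 and 104 CPM in E17.5 and adult cTEC 2. The 2 adult mTEC libraries did not follow that split, with 43.0 CPM in data set 1 and 32.6 in data set 2. Adult cTEC 2 over adult cTEC 1 was 4.32-fold for Hes1 and 3.80-fold for Jag2, whereas mTEC 2 over mTEC 1 was 0.758-fold and 2.01-fold. The data sets are described as separate in the study's methods and differ in the gene list they were counted on. The file headers of data set 2 also name another software version than the processing notes. The part of any of these in the values was not tested.

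The fringe genes differed from each other. Rfng (chr11:120780746-120784207, minus strand) was the most even, between 18.4 CPM in adult mTEC 2 and 39.8 in E17.5 cTEC. Lfng (chr5:140607320-140615545, plus strand) was low in all libraries, from 0.346 CPM in NB to 4.19 in adult cTEC 2. Mfng (chr15:78755882-78773475, minus strand) was 2.83 CPM at E13.5, 0.546, 0.324 and 0.173 from E15.5 to NB, and 1.39 and 1.83 in adult cTEC, the last 2 from 3 and 7 UMIs. In adult mTEC it was 26.0 (23.6 to 28.6) and 22.9 (21.7 to 24.0), clear of all 6 other libraries. A Mfng UMI was found in 6.79% and 5.68% of thinned adult mTEC and in 0.294% and 0.820% of adult cTEC. Aire, a medullary gene, left a UMI in 1.76% and 0.615% of the same cortical cells, so a Mfng share of this size is not read as expression.

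**Figure D1:**
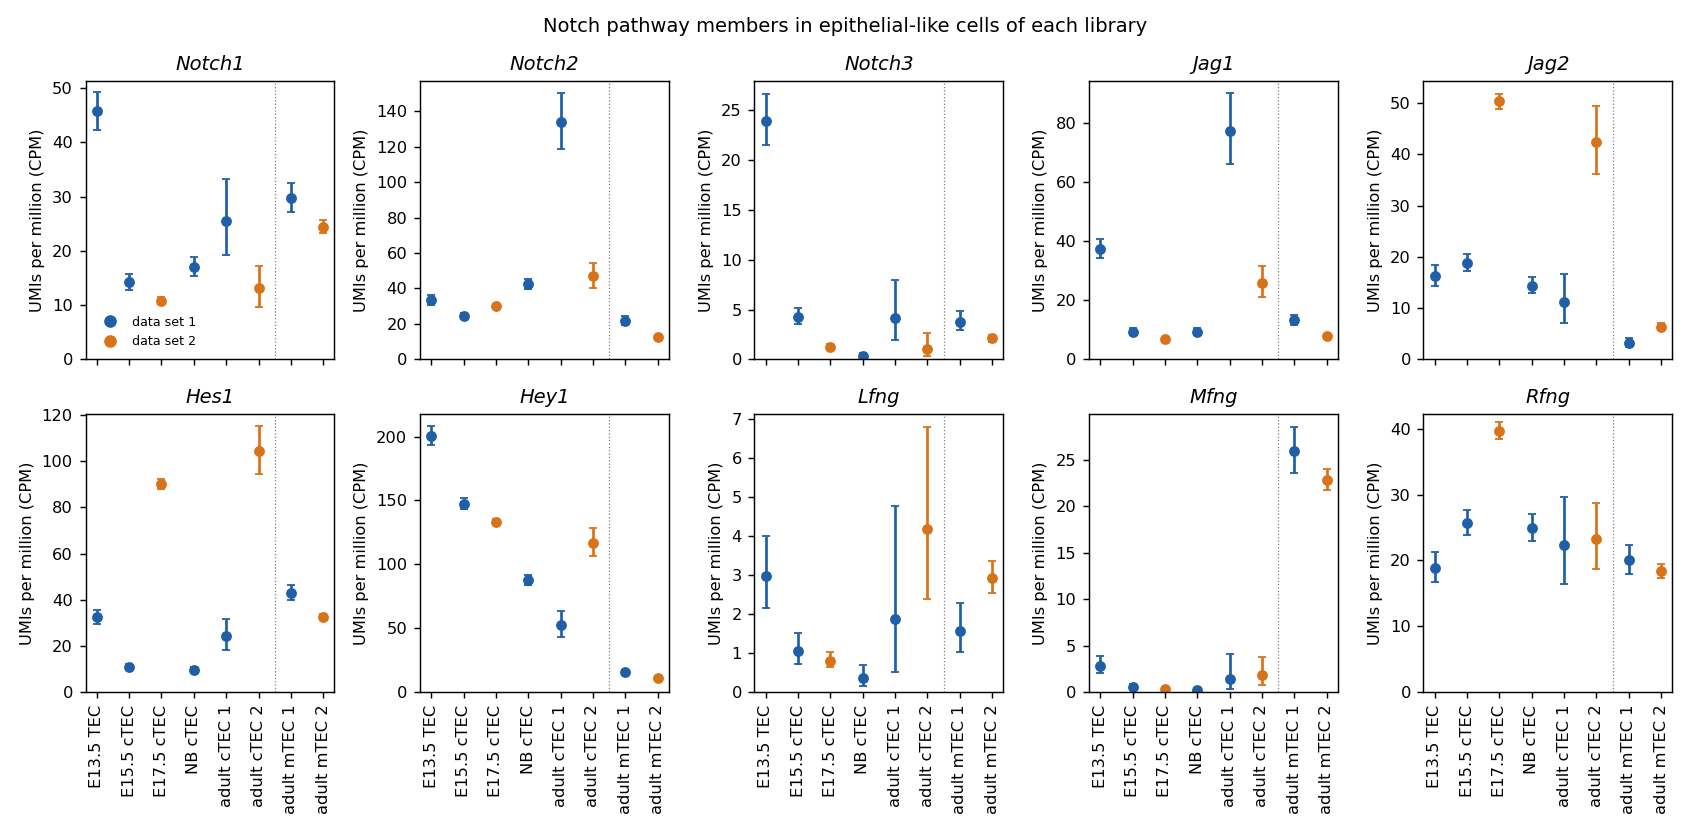
Level of each of the 10 genes in the 8 libraries, in CPM on linear axes from 0, with bars for the exact Poisson 95% interval. Hey1 steps down from 201 CPM in E13.5 TEC to 87.4 in NB cTEC, Notch3 drops to 0.346 in NB, and Mfng stands out in both adult mTEC libraries.

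The change with age was asked of the 6 libraries from E13.5 TEC to adult cTEC with a slope on stage rank in edgeR's quasi-likelihood test, with the data set as a term. The Benjamini-Hochberg adjusted p was set over all 14308 genes tested, of which 1111, or 7.76%, passed 0.05 (690 higher and 421 lower with age). None of the 10 genes passed, and 2 of the 10 had an unadjusted p under 0.05. DESeq2 called 2 of them. These were Hey1 and Notch2. Hey1 had a slope of -0.40 log2 per stage (SE 0.09, adjusted p = 0.0521 by edgeR), and Notch2 one of 0.46 (SE 0.13, adjusted p = 0.0759). With DESeq2 the adjusted p-values were 0.000412 and 0.0220. In resting cells alone, the Hey1 slope was -0.29 with an edgeR adjusted p of 0.120.

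The slope of Notch3 was -0.73 log2 per stage (SE 0.35, adjusted p = 0.229), large but poorly determined. Jag1 had a slope of 0.33 (SE 0.26, adjusted p = 0.453), and without the E13.5 library it was 0.91 with an adjusted p of 0.0481. The other 6 genes had slopes between -0.19 and -0.04. The median slope was -0.12 over the 10 genes and -0.0016 over all genes tested. Dissociation went with age: newborn and adult thymus was digested with Liberase and embryonic thymus with trypsin. The summed level of 20 stress-response genes moved with it, from 995 to 1459 CPM in the embryonic libraries to between 13405 and 23985 in NB and adult cTEC. Its part in the Notch2 and Jag1 levels cannot be told apart from age. The myeloid and mesenchymal marker sums given further on were also higher in adult cTEC than in the younger libraries, and their part was not tested.

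In the wider pathway, 5 of 53 tested genes passed in the age trend, 2 higher and 3 lower, a share near the 7.76% of all genes. Dll1, a Delta ligand, rose by 1.25 log2 per stage (SE 0.20, adjusted p = 0.0217). It was 0.483 CPM in E13.5 TEC, 5.31 in E15.5 cTEC, 7.13 in E17.5 cTEC, 21.1 in NB cTEC, and 41.8 and 30.1 in adult cTEC. Dtx3l, of the Deltex ubiquitin ligase family, rose by 0.60 (adjusted p = 0.0180). Nrarp, a feedback inhibitor induced by Notch, had a slope of -0.86 (SE 0.15, adjusted p = 0.0256). Its level was 27.7 CPM in E13.5 TEC and 0.930 and 4.19 in adult cTEC. Heyl, a Hey family repressor, had a slope of -0.75 (SE 0.14, adjusted p = 0.0301). Fewer of these genes passed without 1 library: 0 without adult cTEC 1, 1 without E17.5, 2 without E15.5 and 2 without adult cTEC 2. The fifth gene was Dlk1, named here after its values were seen, which went from 19.3 CPM at E13.5 to 0 UMIs in both adult cTEC libraries. Dll4 was 20.3 CPM in E13.5 TEC, 79.9 in E15.5 cTEC, 52.1 in E17.5 cTEC, 55.0 in NB cTEC, and 19.5 and 50.3 in adult cTEC, with no slope past the threshold (-0.10, adjusted p = 0.834).

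Adult cTEC and adult mTEC differed most clearly. In the fit of the 4 adult libraries with the data set as a term, 5132 of 15605 genes, or 32.9%, had an adjusted p under 0.05 (1789 with higher and 3343 with lower levels in cTEC). Of the 10 genes 5 passed: Notch2, Jag1, Jag2 and Hey1 were higher in cTEC, and Mfng was lower. The share passing is above that of all genes, on 10 genes only. The median difference was 0.39 log2 over the 10 and -0.14 over all genes tested.

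Hey1 was higher in cTEC by 2.56 log2 (SE 0.43, edgeR adjusted p = 3.72e-07), with 1.76 in data set 1 and 3.44 in data set 2. Jag2 was higher by 2.27 (SE 0.45, adjusted p = 2.12e-05), with 1.81 and 2.73. Jag1 was higher by 2.06 (SE 0.42, adjusted p = 3.34e-05), with 2.56 and 1.70, but by 1.18 (adjusted p = 0.083) in cells with at least 9 G or C bases in the barcode. All 3 genes had both cTEC libraries above both mTEC libraries, so the direction held in each data set. Notch2 was higher by 2.18 (SE 0.40, adjusted p = 3.09e-06), with 2.62 and 1.88. Its difference was smaller in cells with at least 9 G or C bases in the barcode, as given further on. Mfng was lower in cTEC by 3.92 log2 (-3.92, SE 0.55, adjusted p = 2.75e-09), with -4.22 and -3.64. With the cTEC libraries limited to cells that carried a cortical UMI, against all mTEC cells, the differences were 2.76 for Hey1, 2.20 for Jag2, 1.79 for Jag1, 2.18 for Notch2 and -4.40 for Mfng, and all 5 passed.

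Several of these calls were lost in fits that left out 1 library and, of need, the data set term. With all 4 libraries and no data set term, Jag2 already missed the threshold (2.46, adjusted p = 0.0617), while Hey1, Notch2, Jag1 and Mfng passed. In the fits with 1 library left out, Jag2 was 1.0005 log2 (adjusted p = 0.284) without adult cTEC 2 and 1.9598 (adjusted p = 0.0595) without adult mTEC 1. Without adult cTEC 1, Jag1 was 1.33 (adjusted p = 0.089) and Notch2 1.47 (adjusted p = 0.0756). Without adult mTEC 2, they were 1.86 (adjusted p = 0.069) and 1.94 (adjusted p = 0.0546). Hey1 and Mfng passed in all 4 of these fits.

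The other 5 genes did not pass. Notch1 was -0.63 log2 in cTEC over mTEC (adjusted p = 0.262), Notch3 -0.44 (adjusted p = 0.728), Lfng 0.36 (adjusted p = 0.781) and Rfng 0.19 (adjusted p = 0.783). Hes1 was 0.42 (adjusted p = 0.507), from -0.83 in data set 1 and 1.68 in data set 2. Without adult cTEC 1 and the data set term, the Hes1 difference was 1.49 with an adjusted p of 0.0392. Without the term alone it was 0.77 (adjusted p = 0.454).

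Transcripts of other cell types were present in the adult libraries and did not all run with lineage. The 8 endothelial markers summed to 81.4 and 21.7 CPM in adult cTEC 1 and 2 and to 31.3 and 22.1 in adult mTEC, against 7.79 to 24.1 in the younger libraries. The 10 myeloid markers summed to 423 and 34.8 CPM in adult cTEC and to 489 and 619 in adult mTEC, against 1.24 to 4.58 in the younger libraries. The 8 mesenchymal markers summed to 687 and 459 CPM in adult cTEC and to 371 and 215 in adult mTEC, higher in cTEC in both data sets. In the younger libraries they summed to 10.9 to 46.2 CPM. The 8 erythroid markers found were higher in mTEC in both data sets, at 1.39 and 2.36 CPM in adult cTEC against 103 and 155 in adult mTEC. The 20 stress-response genes ran with lineage in both data sets, at 23985 and 13497 CPM in adult cTEC against 12843 and 7904 in adult mTEC. The part of these transcripts in the lineage differences was not tested. For Mfng, which lymphocytes also express, the 14 thymocyte markers found summed to 55.3 and 50.3 CPM in adult cTEC and 44.6 and 42.9 in adult mTEC. The 6 B-cell markers found summed to 55.8 and 20.7 CPM in adult cTEC and 55.0 and 59.9 in adult mTEC, level with each other in data set 1 and higher in mTEC in data set 2. Their part in the Mfng levels was not tested.

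**Figure D2:**
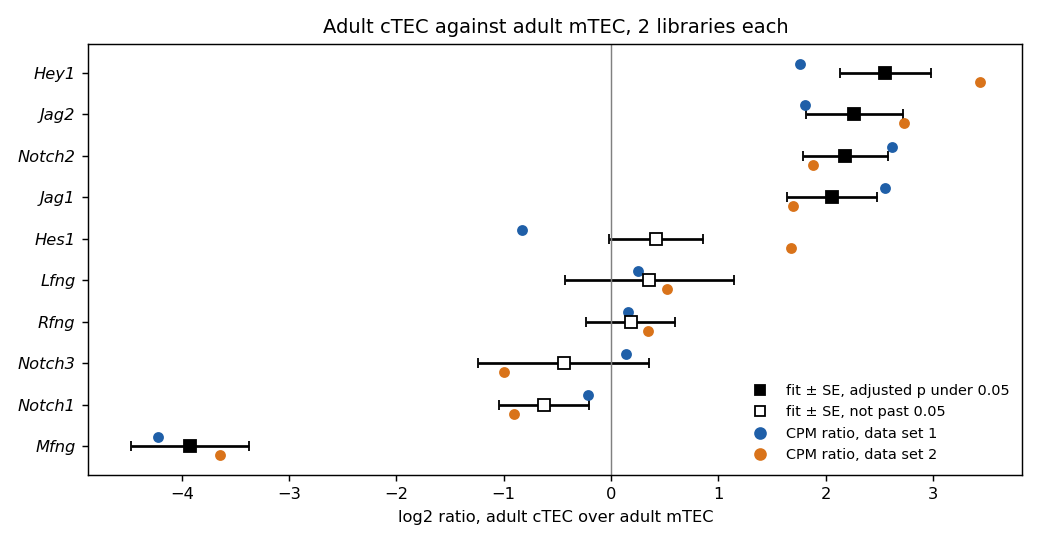
Difference between adult cTEC and adult mTEC for each gene, in log2, from the fit of 4 libraries (squares with SE bars, black where the adjusted p was under 0.05) and within each data set (points). Hey1, Jag2, Notch2 and Jag1 lie to the right, Mfng lies at -3.92, and the 2 data sets fall on opposite sides of 0 for Hes1 and Notch3.

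Of the wider pathway, 18 of 54 tested genes passed between the adult lineages, 9 in each direction, a share near the 32.9% of all genes. The count was 9 to 11 without 1 library and the data set term, and 10 with DESeq2. Among ligands, Dlk2 was higher in cTEC by 3.20 log2 (adjusted p = 7.83e-09), Dll1 by 2.88 (adjusted p = 3.86e-08) and Dll4 by 2.59 (SE 0.45, adjusted p = 1.23e-06). Maml2, a coactivator of the intracellular domain, was higher by 2.79 (adjusted p = 9.17e-08). Dll3, a Delta family protein that does not act as a ligand from a neighbouring cell, was at 0 UMIs in both adult cTEC libraries and at 18.6 and 16.8 CPM in adult mTEC. Against a floor of 3 counts per cTEC library, Dll3 was at least 13.3-fold and 21.4-fold higher in mTEC, and Dlk1 was at least 28.5-fold and 29.0-fold higher. Nrarp was lower in cTEC by 2.39 log2 (-2.39, SE 0.57, adjusted p = 0.000386). Rbpj, the DNA-binding partner of all Notch receptors, was -0.94 (adjusted p = 0.0705).

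The cells of the E13.5 library, sorted before cTEC and mTEC can be told apart by Ly51 and UEA-1, were not alike in these genes. Clusters were made without the pathway genes and are described by their leading genes, with no test and with groupings set after the values were seen. In 2 clusters with 291 cells, Krt5, a basal and medullary keratin, was at 3021 and 4766 CPM. There Notch1 was 152 to 160 CPM, Notch3 38.6 to 79.6 and Jag1 65.2 to 88.8, while Jag2 was 0 to 3.46. In 6 clusters with 1337 cells Psmb11 was between 180 and 692 CPM. There Notch1 was 5.89 to 29.0 CPM, Notch3 4.72 to 17.6 and Jag2 11.4 to 30.7. The ranges of Notch1, Notch3 and Jag2 in the Krt5-rich clusters did not overlap those in the Psmb11-bearing clusters. Notch2 did overlap, at 28.3 to 46.6 CPM with Krt5 and 10.2 to 116 with Psmb11, and so did Jag1, at 7.07 to 74.4 CPM in the latter. Both upper values came from 1 cluster of 144 cells led by Rpgrip1 and Spry2, in which 67.4% of barcodes were low in G and C bases against 13.9% of all cells. In the other 5 Psmb11-bearing clusters Jag1 was 7.07 to 21.3 CPM, clear of the Krt5-rich ones, and Notch2 was 10.2 to 51.9. Outside both kinds, 32 cells led by the mesenchymal genes Lum and Dcn, with Krt5 at 29.1 CPM, had 81.4 CPM of Notch1, 58.2 of Notch2 and 29.1 of Notch3. Also outside both, 136 cells led by Sst and Spink8, with Krt5 at 89.0 CPM, had 40.0 of Notch1, 35.0 of Notch3 and 66.0 of Jag1, the last within the Krt5-rich range. Hey1 was present in both kinds, at 94.5 to 199 CPM with Krt5 and 144 to 266 with Psmb11. In a cluster of 61 cells led by the thyroid-lineage factors Nkx2-1 and Hhex, Hey1 was 25.4 CPM and Notch1 2.12.

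**Figure D3:**
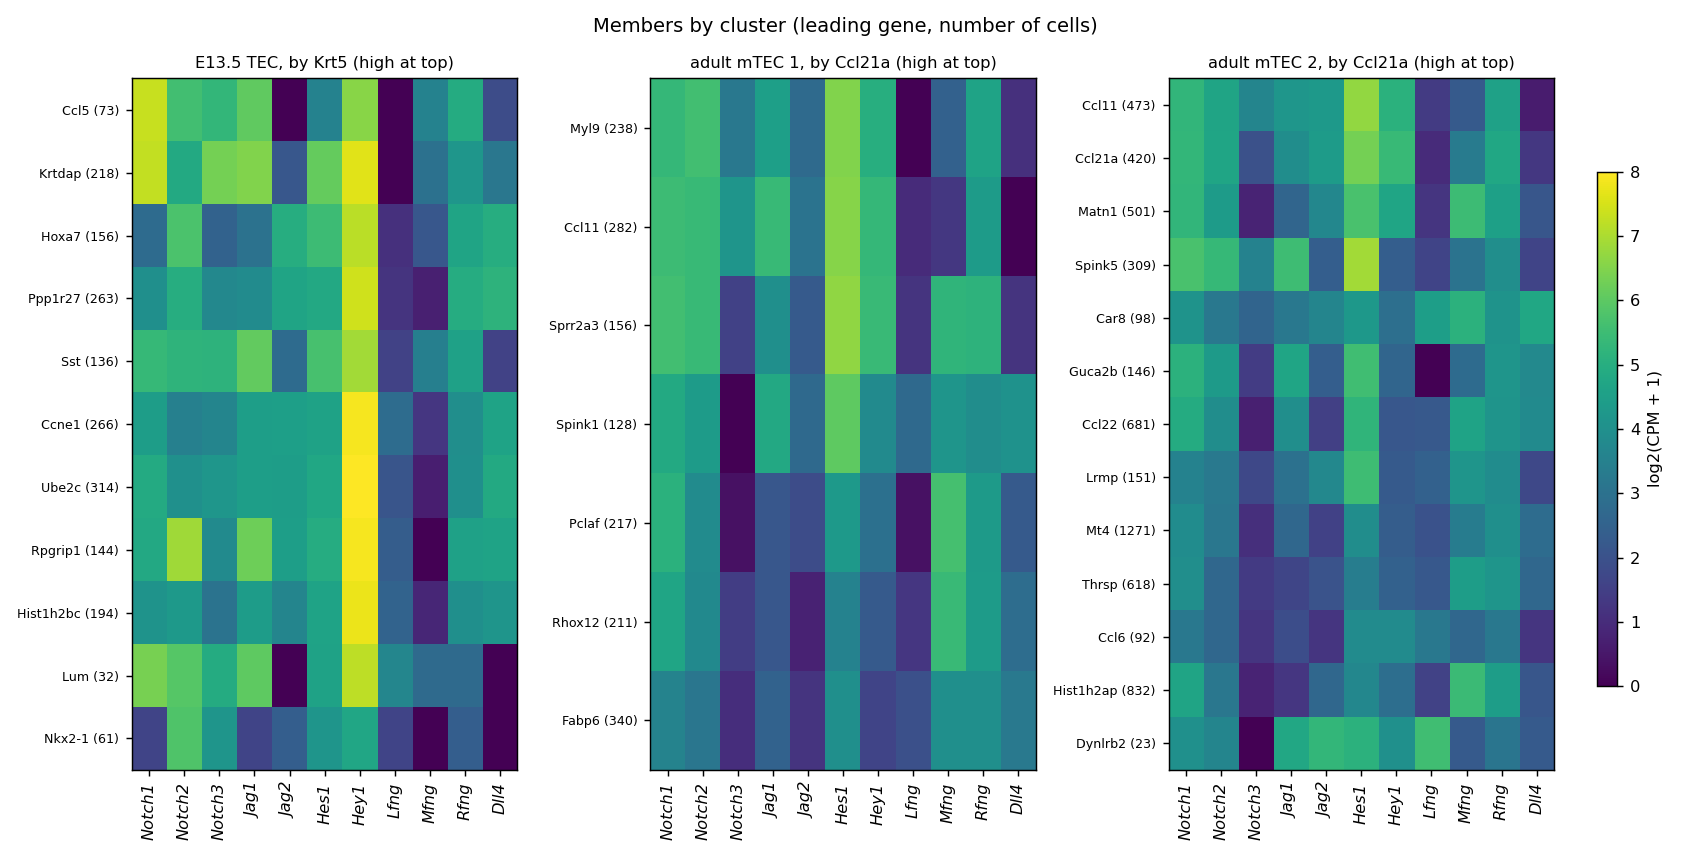
Level of each gene by cluster in E13.5 TEC (ordered by Krt5) and in the adult mTEC libraries (ordered by Ccl21a), as the log2 of CPM with a pseudocount. Notch1 and Notch3 are high in the 2 Krt5-rich clusters of E13.5, and among adult mTEC clusters Hey1 is highest in the Ccl21a-rich ones. Mfng reaches 48.6 CPM in the Pclaf-led cluster of mTEC 1, which is not rich in Ccl21a.

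In cTEC between E15.5 and NB the clusters were more alike in Hey1. Its level ranged from 111 to 214 CPM over 9 clusters at E15.5, from 112 to 162 over 11 clusters at E17.5, and from 75.8 to 97.7 over 9 clusters in NB. In adult cTEC it followed Psmb11. In the 2 clusters of adult cTEC 1 with Psmb11 at 1525 and 1825 CPM (145 cells), Hey1 was 70.1 to 119 CPM against 8.93 to 38.1 in the other clusters, and in the 3 such clusters of adult cTEC 2 (207 cells) it was 142 to 208 against 11.2 to 122. Dll4 followed the same line, at 42.5 to 48.3 against 0 to 13.4 CPM in adult cTEC 1 and 52.8 to 119 against 3.70 to 38.3 in adult cTEC 2. Jag1 leaned the other way, with ranges that overlapped slightly: 31.9 to 51.5 CPM in the Psmb11-rich clusters and 40.2 to 154 in the others of adult cTEC 1, and 12.2 to 24.9 against 24.3 to 46.4 in adult cTEC 2. Genes of other cell types led 2 of those other clusters of adult cTEC 1, and their part in its levels was not tested. The cluster with 154 CPM of Jag1 (100 cells) was led by Meg3, Ctla2a and Flt1, with the endothelial gene Pecam1 at 93.5 CPM, against 25.4 to 50.8 in the remaining others and 44.6 and 61.2 in the Psmb11-rich clusters. The cluster with the most Notch2 (107 cells, 206 CPM, with 86.9 of Jag1) was led by the macrophage genes C1qa, C1qb and C1qc, with Ccl21a at 20401 CPM.

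In adult mTEC, Hey1 was highest in the clusters rich in Ccl21a in both replicates, and Hes1 was higher there than in the clusters rich in Aire. In the clusters rich in Ccl21a, a chemokine of basal mTEC that draws thymocytes to the medulla (3 clusters with 676 cells in mTEC 1 and 2 with 893 cells in mTEC 2), Hey1 was 31.4 to 41.8 and 33.8 to 40.8 CPM, and Hes1 87.8 to 102 and 80.2 to 103 CPM. In the clusters rich in Aire, the regulator of tissue-restricted antigens (3 with 768 cells and 4 with 3402 cells), Hey1 was 2.10 to 6.74 and 3.53 to 6.39 CPM, and Hes1 10.8 to 18.5 and 9.40 to 36.6 CPM. The 2 kinds of cluster did not overlap in either target, in either replicate. Mfng was 14.7 to 48.6 and 9.24 to 42.6 CPM in the Aire-rich clusters and 2.91 CPM in the 520 mTEC I-like cells of mTEC 1, 2 of the 3 Ccl21a-rich clusters there. The third, 156 cells led by Sprr2a3 and Lypd1, had 36.6 CPM, and the 2 Ccl21a-rich clusters of mTEC 2 had 3.76 and 9.04. The clusters in which the cell cycle gene Pclaf was among the leading genes had 48.6 and 42.6 CPM of Mfng. In mTEC III-like cells, the keratinising subset (128 and 309 cells), Hes1 was 63.2 and 117 CPM, Notch1 28.3 and 51.6, and Jag1 27.3 and 44.9. In mTEC 2 this was the highest Hes1 level of any cluster, above those rich in Ccl21a. In the 151 tuft-like cells of mTEC 2, Hes1 was 45.2 CPM and Hey1 3.83.

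The share of cycling cells ran with age, from 78.5% at E13.5 to 31.5%, 13.6% and 12.6% from E15.5 to NB, and 2.03% and 6.61% in adult cTEC. Cycling and resting cells were therefore compared within each library, with the library as a block, where a cycling cell had a proliferation score above 0. Between 1.63% and 8.35% of the cells of a library had a score within 0.05 of that limit. In this comparison 4427 of 16998 genes, or 26%, passed. Among the 10 genes, Notch2 passed, at -0.36 log2 in cycling cells (SE 0.12, edgeR adjusted p = 0.0395), and it was lower in cycling cells in 8 of 8 libraries. At E13.5 it was 29.8 CPM in cycling and 52.9 in resting cells, the widest ratio of the 8. At E15.5 it was 23.9 and 24.7 CPM, the narrowest, and the cycling cells of adult cTEC 1 held 7 UMIs. The call did not hold without both adult cTEC libraries (-0.30, adjusted p = 0.088) or with cells split by separate S and G2M scores (-0.20, adjusted p = 0.232). It was also lost with no library block and in either data set alone. Notch1 was 0.39 (SE 0.14, adjusted p = 0.0564) and was higher in cycling cells in 4 of 8 libraries, among them E15.5 at 20.9 against 10.2 CPM. The other 8 genes lay between -0.25 and 0.46. With the split by S and G2M scores, 1 of the 10 genes passed, higher in cycling cells. With all clusters kept, 1 passed as higher and 1 as lower.

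In the wider pathway, 17 of 55 tested genes passed between cycling and resting cells, 5 higher and 12 lower. This is near the 26% of all genes, of which 1469 were higher and 2958 lower. The count was 5 in either data set alone and 0 without the library block. The Notch-induced inhibitor Nrarp was higher in cycling cells by 0.61 log2 (adjusted p = 0.00782), the deacetylase Hdac2 by 0.48 and Dvl2, a Wnt-pathway protein, by 0.45. Lower in cycling cells were Dtx4 (-1.001), Heyl (-0.95, adjusted p = 0.000737), Dtx3 (-0.79) and the ligand Dll4 (-0.47, adjusted p = 0.0301).

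**Figure D4:**
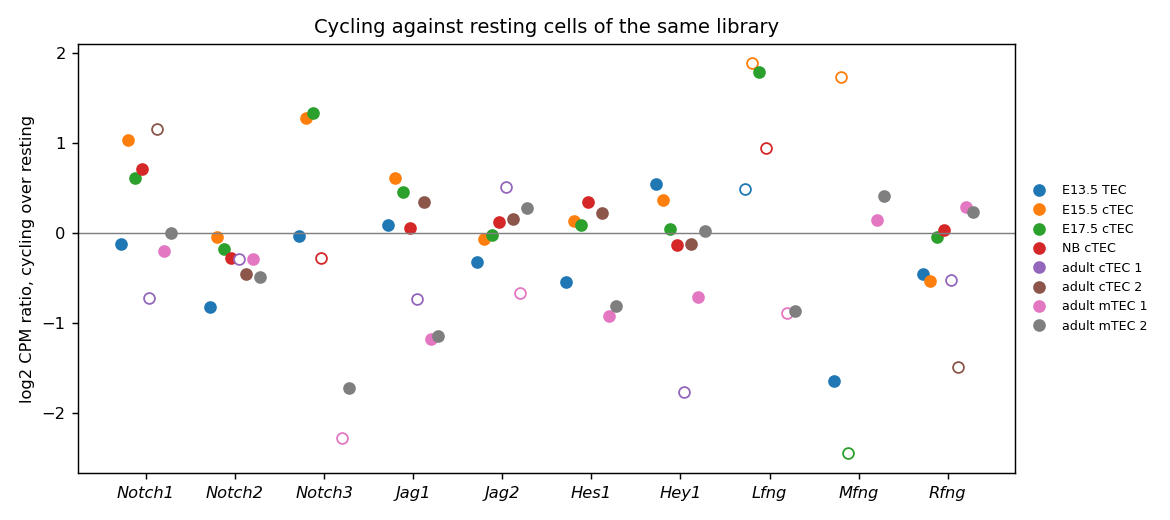
Difference between cycling and resting cells of the same library for each gene, in log2, 1 point per library, with open circles where either sum held under 10 UMIs. Notch2 is below 0 in 8 of 8 libraries, and the other genes have points on both sides.

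Levels of Notch2 and Jag1 also differed with the base composition of the cell barcode. A cell barcode is the random 16-base DNA tag that marks all transcripts of 1 droplet and has no relation to the biology of the cell inside. In NB cTEC, the cluster highest in Notch2 (246 cells, 249 CPM against 46.9 in the next) was led by Slc39a1, Notch2 and Spry2, and 72.4% of its cells had at most 6 G or C bases in the barcode, against 13.2% of all cells. The 6 NB cells with the most Notch2 UMIs are shown because their barcodes carry this pattern, with G and C in capitals:
cell 1, 9 Notch2 UMIs, 6 G or C: CtaGaGtaGaCtaaGt
cell 2, 9 Notch2 UMIs, 5 G or C: tGaaaGaGtaaaGtCa
cell 3, 8 Notch2 UMIs, 5 G or C: GtCatttCatGGaata
cell 4, 6 Notch2 UMIs, 6 G or C: aCtGaaCtCtatCCta
cell 5, 6 Notch2 UMIs, 5 G or C: CaaGaaatCttGtttG
cell 6, 6 Notch2 UMIs, 5 G or C: CtaaCttaGaGaCtat

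The 6 cells with the most Hey1 UMIs are set beside them as a comparison:
cell 1, 6 Hey1 UMIs, 7 G or C: GCataCaCatGCaatC
cell 2, 6 Hey1 UMIs, 6 G or C: tCtattGtCGaaCtGt
cell 3, 5 Hey1 UMIs, 6 G or C: aaGGttCaGaCaCtaa
cell 4, 5 Hey1 UMIs, 7 G or C: CCttaCGGttaaGaaC
cell 5, 5 Hey1 UMIs, 8 G or C: CGCttCaGttGCGtta
cell 6, 5 Hey1 UMIs, 8 G or C: GGGaCCttCatCattC

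Of the 39 NB cells with at least 4 Notch2 UMIs, 33 (84.6%) had a barcode of low G+C content, with a median of 6 G or C bases against 8 over all cells. Of the 41 NB cells with at least 4 Hey1 UMIs, 8 (19.5%) did. In the 3 embryonic libraries, the cluster highest in Notch2 had 67.4% (E13.5), 79.1% (E15.5) and 46.9% (E17.5) of low G+C barcodes, and haemoglobin genes led the one of E17.5. In the 4 adult libraries the share was between 15.53% and 18.7%.

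Cells with at most 6 and with at least 9 G or C bases were then compared within each library, a comparison chosen after the data were seen. Low G+C cells made up 12.7% to 15.9% of each library. In the edgeR fit, 190 of 15298 genes, or 1.24%, passed (167 higher and 23 lower in low G+C cells). Notch2 and Jag1 were the 2 of the 10 genes that passed. Notch2 was higher in low G+C cells by 2.63 log2 (SE 0.18, adjusted p = 1.98e-07), the fifth largest difference of all genes tested. It was 134 CPM in low, 24.3 in middle and 8.16 in high G+C cells of E13.5, and 157, 32.5 and 16.2 in those of NB. In adult cTEC 1 the levels were 412, 109 and 45.1 CPM and in adult mTEC 1 48.5, 19.3 and 15.3. The low over high ratio of Notch2 was between 3.17 and 16.4, and above 1 in 8 of 8 libraries. Jag1 was higher by 1.19 log2 (SE 0.15, adjusted p = 0.000109), with ratios from 1.40 to 3.79, above 1 in 8 of 8 libraries. The other 8 genes lay between -0.21 and 0.09 log2, and the ratio of Hey1 was between 0.690 and 1.15.

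The lineage difference was then taken in high G+C cells alone. There Notch2 was higher in adult cTEC by 1.51 log2 (adjusted p = 0.024) and Jag1 had lost its call, as given above. Jag2 (2.20), Hey1 (2.65) and Mfng (-3.39) kept their calls. The age slope of Notch2 in high G+C cells was 0.54 log2 per stage with an adjusted p of 0.0436, past the threshold it missed in all cells. The level of Notch2 and Jag1 in a cell differed with its barcode. The share of low G+C barcodes was similar in all libraries, but the low over high ratio of Notch2 ran from 3.17 to 16.4. Beyond the fits in high G+C cells, the part of barcode composition in the differences between libraries was not tested.

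**Figure D5:**
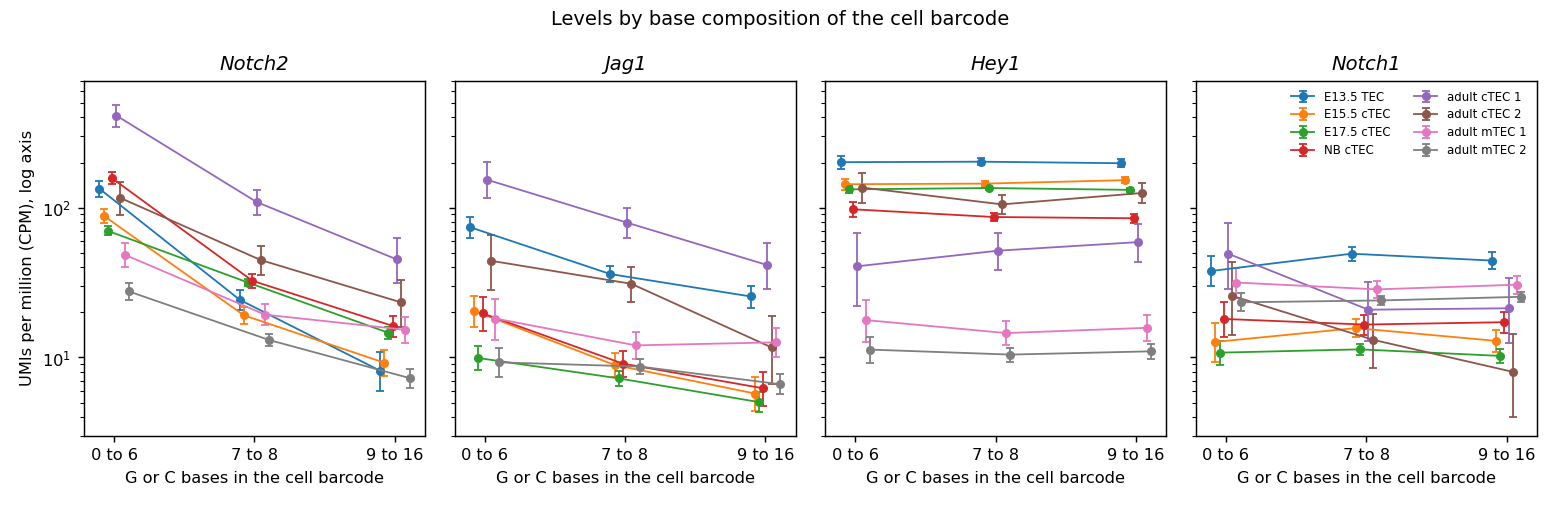
Level of Notch2, Jag1, Hey1 and Notch1 in cells with low (at most 6), middle and high (at least 9) numbers of G or C in the 16-base barcode, in CPM on log axes, 1 line per library. Notch2 steps down from low to high in all 8 libraries, from 134 to 8.16 CPM at E13.5, and Hey1 stays level.

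The genes most like each member over the 8 libraries were found by Pearson's r of log2(CPM + 1) among about 8428 genes, as a description over libraries that share age, data set and dissociation. Hey1 was closest to Rab13 (r = 0.991) and Pdcd5 (0.986), and Mfng to Blnk and Snx8 (both 0.988). Jag1 was closest to Itpr1 (0.983), Notch2 to Flot2 (0.970), Notch3 to Agps (0.966), Notch1 to Ppp1cb (0.963), Jag2 to Aaed1 (0.961) and Hes1 to Bod1 (0.951). The least matched were Rfng, with Wdr20 at 0.918, and Lfng, with Abcd3 at 0.876. With 10 added to the CPM in place of 1, the best match of Rfng was A630023P12Rik at 0.949, level with that of Hes1 (Akirin2, 0.949).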

How the data were processed

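TEC were sorted and captured with 10x Genomics Chromium 3' v2 chemistry, 1 library per sample (8 libraries). The authors deposited raw UMI counts per gene and cell. The processing notes name Cell Ranger 2.0.1, STAR 2.5.1b, bcl2fastq 2.17 and mm10, while version 3.0.1 of that tool stands in the file headers of data set 2. The data sets list 27998 and 31053 genes, and the 27514 common ones were used. No column of other samples was present (0 unused). Cells with over 5% mitochondrial UMIs or over 5000 genes were left out, as in the study's methods. Cells were clustered with scanpy 1.11.5 (2000 variable genes without the pathway genes, 20 components, Leiden resolution 0.8), and clusters were named only from fixed markers. Scrublet marked 0.168% and 0.196% of the cells in the 2 libraries over 5000 cells, so it had not worked there. Elsewhere it marked 0% at E13.5, 0.252% at E15.5, 0.111% in NB, 0.378% in adult mTEC 1, and 2.37% and 1.31% in adult cTEC 1 and 2. Doublets were kept in the reported fits.

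Counts were summed per library and tested with edgeR 4.0.16 in R 4.3.3 (TMM, filterByExpr, quasi-likelihood, Benjamini-Hochberg, threshold 0.05), with DESeq2 1.42.0 as an alternative. Log2 differences are fitted values, except within a data set or library, where they are ratios of CPM. SE is the difference over the square root of F. Leaving out an adult library from the lineage fit left no residual degrees of freedom with the data set term, so those fits omit it and assume that the lone library varies like the other group. The scripts were tested on simulated counts. Per-cell shares were taken after thinning to 3000 UMIs. This left out 152 of the 492 cells of adult cTEC 1, and between 9 and 212 cells of each other library (212 of 5615 in adult mTEC 2). Depth limits low genes in the 2 small adult cTEC libraries most. Proliferation scores used S and G2M genes. Genes of the wider pathway (57) are named where they have the largest changes past the threshold in a direction (up to 3, average log2 CPM above 3), with Dll4 and Rbpj always. The members, lists and tests were chosen with earlier results of these data known. Positions are from GENCODE vM21 on GRCm38. Promoter and protein sequences were not used here.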

Additional observations from a re-analysis of the deposited data

Results flagged for a closer look

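Several values moved in opposite directions between data sets or ages, and none of these differences was itself tested. The adult cTEC over mTEC difference of Hes1 was -0.83 log2 in data set 1 and 1.68 in data set 2. That of Notch3 was 0.14 and -0.999, from 9 and 4 UMIs in the adult cTEC libraries. Lfng was higher in cycling than resting cells at E13.5 (0.48 log2), E15.5 (1.88), E17.5 (1.79) and NB (0.94) and lower in adult mTEC 1 and 2 (-0.89 and -0.87), with as few as 2 UMIs in the cycling cells of NB and 0 in those of both adult cTEC libraries.

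Signal of the receptors was also present in cells that had been set aside. In 124 parathyroid-like cells of E13.5, Notch2 was 70.3 CPM, against 33.4 in the epithelial-like cells. In thymocyte-like cells, Notch1 was 31.0 CPM at E17.5 (35 cells) and 40.1 in NB (170 cells), above the 10.8 and 17.03 of the cTEC around them. Mfng was 4.13 and 3.88 CPM in these thymocyte-like cells, with 2 UMIs at E17.5. No group held 4 or more libraries, so no search for a library far from its group could be made.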

How the results depend on the processing

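For the age trend, 1111 genes were called, against 2855 with DESeq2, 647 in resting cells only, 413 in data set 1 only and 13 for fetal against postnatal, and between 16 and 1242 without 1 library (16 without adult cTEC 1); members called were 0, against 1 with RLE scaling, 2 with DESeq2, 1 in high G+C cells and 0 to 1 without 1 library (1, Jag1, without E13.5). Between adult lineages, 5132 genes were called, against 2568 with DESeq2, 2956 in high G+C cells and 1854 to 2835 without 1 library and the data set term; members called were 5, against 3 to 4 in the latter fits. Between cycling and resting cells, 4427 were called, against 533 with no replicate block, 2010 and 1784 in data set 1 and data set 2 only; members called were 1, against 0 with no block, 2 with all clusters kept, 2 in high G+C cells, 0 without both adult cTEC libraries and 0 in either data set alone. For barcode G+C, 190 were called, against 581 with no filter on low counts, 21 with no block, 320 and 334 in either data set; members called were 2, against 1 with no block. The high G+C settings, the single data sets of the last 2 comparisons and the omission of E15.5, E17.5 or NB were chosen after seeing the data. The causes were not tested.

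In the age and lineage fits, signs turned for genes whose reported values did not pass. Age slopes turned for Lfng (0.093 with no data set term, 0.18 in resting cells, 0.077 for fetal against postnatal, -0.39 to 0.37 without 1 library), Rfng (0.027, then 0.041 in data set 1 only, and -0.19 to 0.050), Jag2 (0.13 with no data set term) and Hes1 (0.30, and -0.36 to 0.22). Without 1 library they ranged from -0.26 to 0.19 for Notch1, -0.20 to 0.91 for Jag1, -0.65 to 0.49 for Mfng, -0.42 to 0.18 for Dll4 and -0.0015 to 0.26 for Rbpj. Lineage differences turned in high G+C cells for Rfng (-0.23) and Notch3 (0.040), and without 1 library ranged from -1.45 to 0.35 for Notch3, -0.49 to 0.95 for Lfng and -0.83 to 1.49 for Hes1. Differences between cycling and resting cells turned 19 times over 5 members and those by barcode 21 times over 6, none of them called. Jag2 between lineages with no data set term was 2.46 (adjusted p = 0.0617). Levels of 80 gene and library pairs stayed within their intervals with all clusters kept, while 26 moved in high G+C cells. Shares moved in 69 of 80 pairs without thinning and 64 of 80 at 1500 UMIs. The replicate numbers 1 and 2 of the adult libraries were given in order of deposit and are not in the labels, so they pair nothing. The data set term compares the adult libraries within each data set.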
